A study of Mus musculus with 8 samples.

Results

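Of 32531 genes counted in each library, 46 are markers of glial cells, blood vessels and connective tissue, and their level was followed here in ribosome-bound RNA pulled from neurons. The genes were taken by symbol from a list of cell type markers, by a rule that uses no measured value, although the list was drawn up with earlier results of these data known. They comprise 12 astrocyte, 11 oligodendrocyte, 5 oligodendrocyte precursor and lineage, 7 microglia, 7 endothelial, 3 mural and 1 fibroblast gene. All 46 were in the tables, and 30 had enough counts to be tested between regions.

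The RNA came from mice of the line Drd1-EGFP/Rpl10a (CP73), all older than 20 months and all untreated. In this line the Drd1 (dopamine receptor) promoter drives the ribosomal protein L10a joined to green fluorescent protein, and antibodies to the fluorescent protein were used to purify tagged polysomes. There were 4 immunopurified libraries of dorsal striatum and 4 of the accumbens nucleus, which carried the same transgene and were of the same age. The labels do not say whether a library came from 1 animal or from a pool, so p-values measure only the spread between these samples. Unpurified input and untagged animals were not analysed here. Counts from other cells and low expression in the tagged neurons could therefore not be separated gene by gene.

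Translating ribosome affinity purification enriches transcripts of the tagged cell type but does not remove all RNA of its neighbours. Astrocytes take up glutamate and are joined by gap junctions, oligodendrocytes wrap axons in myelin, and microglia are the resident macrophages of the brain. Endothelial cells line the capillaries and form the blood-brain barrier, while mural cells (pericytes and smooth muscle) sheathe them. Transcripts of these cells are therefore used as a gauge of RNA from cells without the tag, although some of them, such as Slc1a2, are also known at low levels in some neurons.

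The libraries held between 7466970 and 12639641 counts assigned to genes, with the 4 accumbens libraries above the 4 dorsal ones. Levels are given as counts per 1000000 gene counts (CPM), with totals adjusted by the trimmed mean of M-values (TMM), and a count of 3 corresponded to between 0.237 and 0.414 CPM. Drd1 itself had 637, 532, 578 and 668 CPM in dorsal striatum 1 to 4 and 441, 554, 363 and 381 CPM in accumbens 1 to 4, with accumbens 2 inside the dorsal range. Its log2 fold change was -0.47 and did not pass the test (adjusted p = 0.075). DESeq2 and limma-voom called it lower in accumbens (adjusted p = 0.0329 and 0.0187), as did edgeR when low counts were kept (adjusted p = 0.0398). Leaving out accumbens 2, alone or along with dorsal striatum 3, also gave a call (adjusted p = 0.0167 and 0.0245). Accumbens 2 was the highest accumbens library for Drd1, so its removal lowers the fold change by construction. In the other 12 of 17 alternatives Drd1 was not called, with an edgeR adjusted p of up to 0.231 (without accumbens 3). Rpl10a, the gene whose product carries the tag, had 193, 209, 145 and 227 CPM in the dorsal libraries and 205, 220, 228 and 171 CPM in the accumbens ones, with overlapping regions.

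Neuronal transcripts were far more abundant than the markers, and their sum was lower in accumbens. A list of 12 pan-neuronal genes summed to between 20275 and 20997 CPM in dorsal and between 15498 and 17878 CPM in accumbens libraries, with Snap25 and Nefm called lower. Snap25 dominated that sum and its fall, averaging 12485 CPM in dorsal and 8710 CPM in accumbens libraries. Fold changes were above 0 for 5 of the 12 genes, so the sum does not describe them all. The 46 markers together summed to between 349 and 1141 CPM.

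The 46 markers made up a small share of every library, and that share was larger in accumbens. It was 0.0416%, 0.0621%, 0.0537% and 0.0343% of gene counts in dorsal striatum 1 to 4. In accumbens 1 to 4 it was 0.118%, 0.0714%, 0.0674% and 0.0717%. The regions did not overlap, the mean being 0.0479% ± 0.0124 for dorsal libraries and 0.0820% ± 0.0238 for accumbens libraries (SD, n = 4 each), a ratio of 1.71. The 95% Wilson binomial intervals of these shares, which cover counting error only, reached at most 0.0637% in a dorsal library and began at 0.0660% in an accumbens one. Single genes whose regions do not overlap made up 9.69% of all tested genes, so separation of this kind is common in these data, and no p is given for a sum over chosen genes. In bulk RNA, fewer cells of a type and less RNA per cell cannot be told apart.

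A single gene carried much of that share. Slc1a2, the astrocyte glutamate transporter GLT-1, held between 31.4% (accumbens 4) and 65.5% (accumbens 3) of all marker counts. Without it the share was 0.0253% ± 0.00715 for dorsal and 0.0382% ± 0.0145 for accumbens libraries (SD, n = 4 each), a ratio of 1.51. Accumbens 2 and 3, at 0.0283% and 0.0232%, then lay within the dorsal range of 0.0169% to 0.0323%, so the regions overlapped. The libraries of 1 region also differed in how many markers were absent. No count at all was seen for 10, 2, 6 and 10 of the 46 markers in dorsal striatum 1 to 4, and for 1, 9, 7 and 5 in accumbens 1 to 4.

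**Figure D1:**
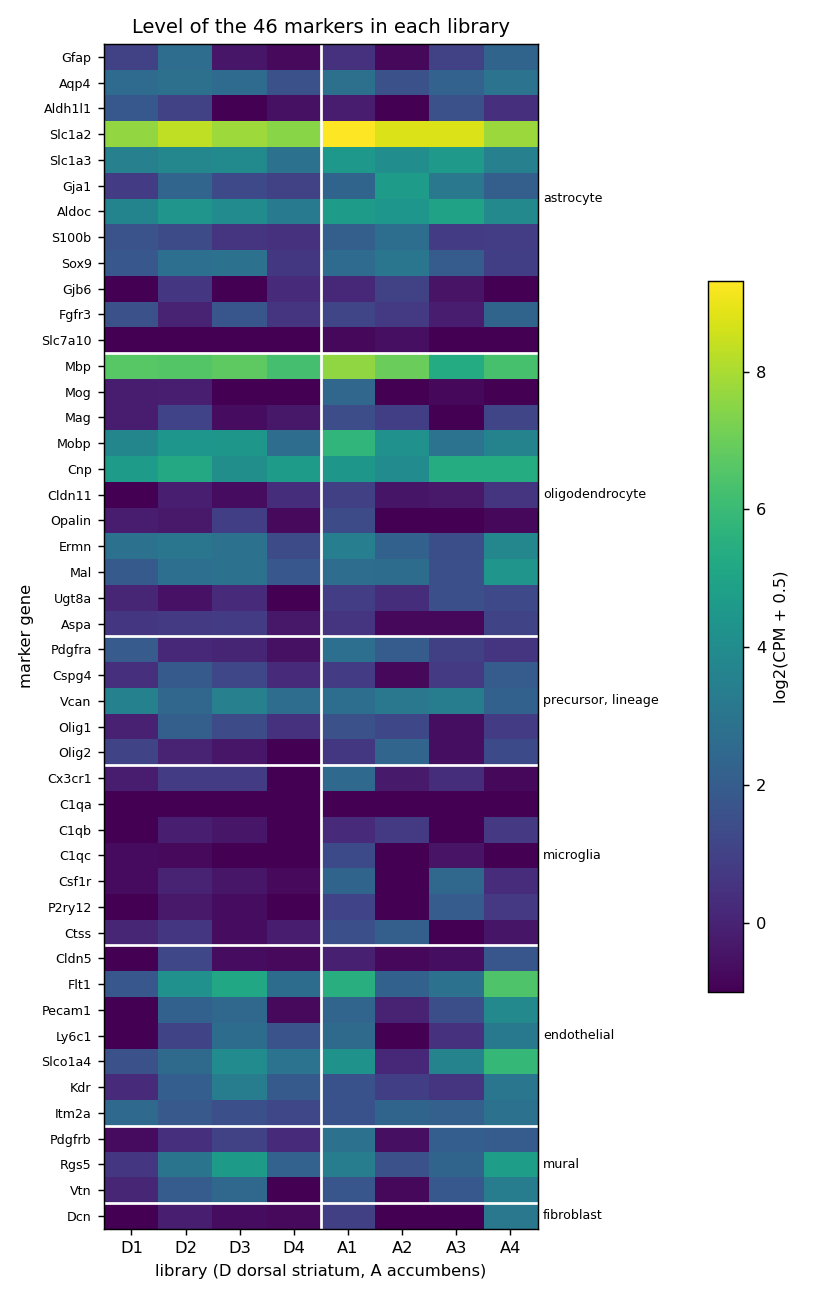
Level of each of the 46 markers, as log2(CPM + 0.5) in colour, in 4 dorsal striatum (D1 to D4) and 4 accumbens (A1 to A4) libraries, with genes in rows grouped by cell type and white lines between groups. Slc1a2 and Mbp are the brightest rows, the microglia rows are near 0 counts in most libraries, and 8 of the 10 endothelial and mural rows are brightest in A4.

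Between regions, 1 of the 30 tested markers was called higher in accumbens and 0 were called lower by edgeR's quasi-likelihood test at an adjusted p under 0.05. Of all 12467 genes tested, 1.6% were called higher and 3.72% were called in either direction, so the share of markers called was near that of genes at large. Unadjusted p-values were under 0.05 for 3 markers, Slc1a2, Gja1 and Pdgfrb, all with fold changes above 0. No tested marker had separate regions. Fold changes were above 0 for 24 of the 30 tested markers, with a median log2 fold change of 0.56, against 51.8% of all tested genes and a median of 0.02. The filter keeps genes by their counts in at least 4 libraries, so the tested markers are the better detected ones. The size of these values depended on accumbens 4 and accumbens 1. Without accumbens 4, 18 of 33 tested markers had fold changes above 0 and the median was 0.22, beside 51.0% of all genes. Without accumbens 1 the count was 22 of 31 and the median 0.32.

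**Figure D2:**
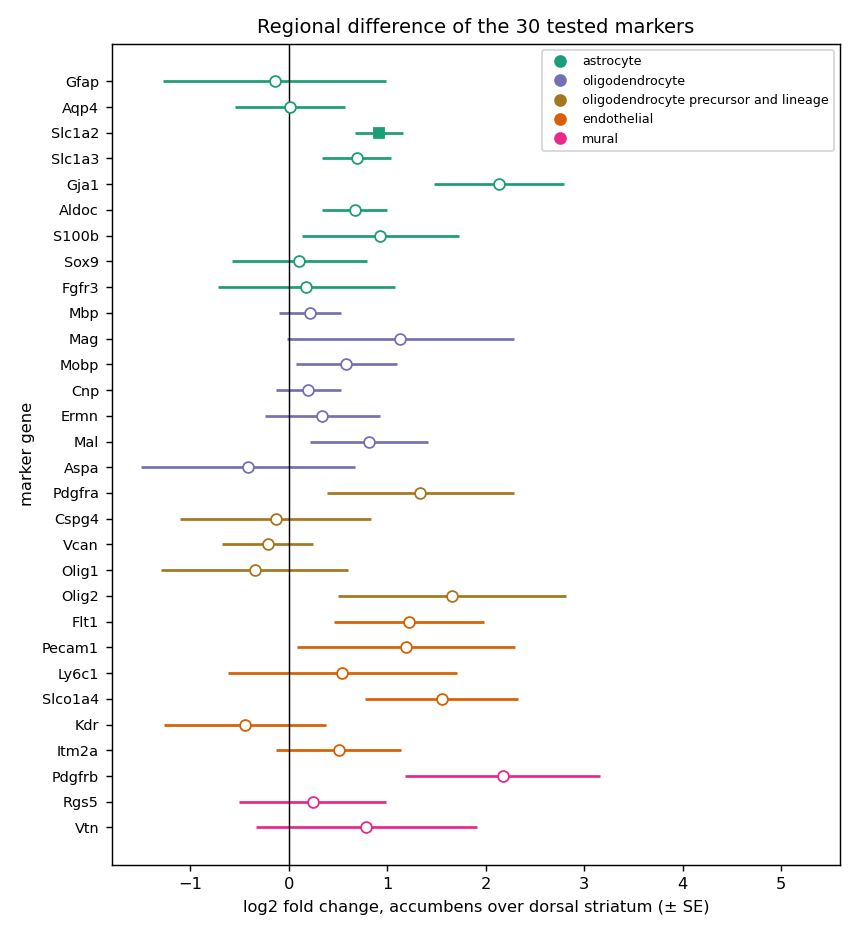
Log2 fold change of accumbens over dorsal striatum (x axis) with its standard error for the 30 tested markers (y axis), coloured by cell type, with a filled square for the marker called by the test and open circles for the others. Slc1a2 at 0.91 is the called marker, and its interval of 1 standard error is the narrowest of the 30.

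Astrocyte markers were the most abundant class. Their 12 genes summed to 244, 381, 269 and 201 CPM in dorsal striatum 1 to 4 and to 709, 519, 515 and 263 CPM in accumbens 1 to 4. Accumbens 1, 2 and 3 stood above every dorsal library, and accumbens 4 lay within the dorsal range. The mean was 274 ± 77.0 CPM for dorsal and 502 ± 183 CPM for accumbens libraries (SD, n = 4 each). Of the 9 tested astrocyte genes, 8 had fold changes above 0, the median log2 fold change was 0.67, and 1 was called. With 1 library left out, the median ran from 0.24 (without dorsal striatum 4) to 0.90 (without dorsal striatum 2). Without dorsal striatum 4, 5 of 10 tested astrocyte genes had fold changes above 0, beside 53.1% of all genes. Without accumbens 4 the count was 6 of 10, beside 51.0%.

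Slc1a2 (chromosome 2, 102658659 to 102790784, plus strand, GRCm38), whose exons overlap Gm13872 on the opposite strand, was the called gene. Its level was 201, 319, 221 and 177 CPM in dorsal striatum 1 to 4. In accumbens 1 to 4 it was 637, 438, 440 and 215 CPM. The first 3 accumbens libraries were above all dorsal ones, and accumbens 4 was below dorsal striatum 2 and 3, so the regions overlapped. The log2 fold change was 0.91 with a standard error of 0.24 and an adjusted p of 0.0452. The call is close to the threshold and was lost without any of 6 libraries. Without dorsal striatum 1, 3 or 4 the adjusted p was 0.138, 0.134 and 0.163, and without accumbens 1, 2 or 3 it was 0.166, 0.0851 and 0.0926. Without accumbens 4 the log2 fold change was 1.14 with an adjusted p of 0.00216, and without dorsal striatum 2 it was 1.11 with an adjusted p of 0.0195. By DESeq2 the adjusted p was 0.0927, by limma-voom 0.0753 and with upper-quartile normalization 0.0513, at log2 fold changes of 0.92, 0.80 and 0.90.

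The other astrocyte genes were much lower. Per kilobase of exon, the scale on which levels can be set against each other, Slc1a2 averaged 25.2 CPM per kb over the 8 libraries, Aldoc 5.61, Slc1a3 1.72, S100b 1.61 and Gfap 0.443. Aldoc, a glycolytic aldolase enriched in astrocytes, had 12.2, 20.5, 15.05 and 8.85 CPM in the dorsal libraries and 25.2, 20.7, 29.97 and 14.05 CPM in the accumbens ones. Accumbens 1, 2 and 3 were again above all dorsal libraries, although accumbens 2 exceeded dorsal striatum 2 by less than 1 CPM. The log2 fold change of Aldoc was 0.67 with a standard error of 0.33 (adjusted p = 0.361). Slc1a3, the other glial glutamate transporter, had the same 3 accumbens libraries above all dorsal ones, with values from 6.88 to 14.2 CPM (dorsal) and from 10.7 to 23.2 CPM (accumbens) (adjusted p = 0.382). The ratio of Slc1a2 to Slc1a3 per kb stayed between 10.1 and 18.5 in the 8 libraries.

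Gja1, which encodes the gap junction protein connexin 43, did not keep that proportion. It had 1.30, 4.66, 1.93 and 1.57 CPM in dorsal striatum 1 to 4 and 4.48, 25.2, 8.20 and 3.88 CPM in accumbens 1 to 4. Accumbens 2 alone held 49.2% of the sum over the 8 libraries, and dorsal striatum 2 lay above accumbens 1 and 4. The log2 fold change was 2.13 with a standard error of 0.66 (adjusted p = 0.0913). The gene was called by DESeq2 (adjusted p = 0.0214) and without a filter on low counts (adjusted p = 0.0303). Without accumbens 2 the log2 fold change was 1.22 and the adjusted p 0.443. The ratio of Slc1a2 to Gja1 per kb ranged from 13.6 in accumbens 2 to 121 in dorsal striatum 1.

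Among the remaining astrocyte genes, Aqp4, the water channel of astrocyte endfeet, had nearly equal means of 5.03 ± 1.76 CPM (dorsal) and 5.07 ± 2.16 CPM (accumbens), as mean and SD of 4 libraries. Gfap, the intermediate filament of astrocytes, ran from 0.0851 CPM in accumbens 2 to 5.93 CPM in dorsal striatum 2, with 4.54 CPM in accumbens 4. The 2 highest libraries of Gfap thus belonged to different regions. S100b, Sox9 and Fgfr3 ran between 0.394 and 7.75 CPM with overlapping regions. Aldh1l1, Gjb6 and Slc7a10 were too low to test, with 87, 45 and 3 counts over all 8 libraries.

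**Figure D3:**
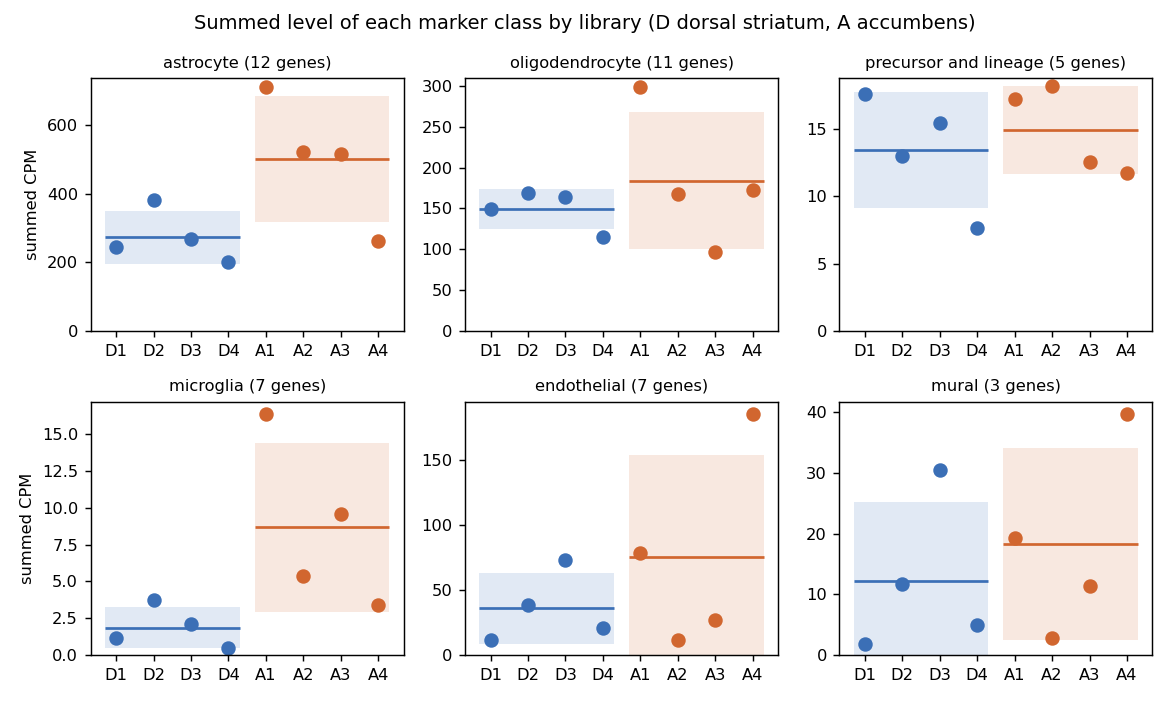
Summed CPM (y axis, from 0, scale differing between panels) of 6 marker classes in each library (x axis, D1 to D4 dorsal striatum in blue, A1 to A4 accumbens in orange), with lines at the region means and shading of 1 SD. A1 is highest for astrocyte, oligodendrocyte and microglia genes, and A4 for endothelial and mural genes, at 186 and 39.7 CPM.

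Oligodendrocyte markers came next and differed more within accumbens than between the regions. Their 11 genes summed to 149, 169, 164 and 115 CPM in dorsal striatum 1 to 4 and to 299, 168, 96.6 and 173 CPM in accumbens 1 to 4. Accumbens held both the highest and the lowest library. The mean was 149 ± 24.6 CPM for dorsal and 184 ± 84.0 CPM for accumbens libraries (SD, n = 4 each). None of the 7 tested genes was called by edgeR, with 0 at an unadjusted p under 0.05, and 6 had fold changes above 0, with a median log2 fold change of 0.34. With 1 library left out, the median ran from -0.01 (without accumbens 4, where 3 of 7 were above 0) to 0.64 (without dorsal striatum 2 or accumbens 3).

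Mbp, myelin basic protein, was the leading gene, with 97.9, 92.6, 109 and 76.8 CPM in dorsal striatum 1 to 4 and 194, 122, 40.6 and 79.8 CPM in accumbens 1 to 4. Mobp, another myelin protein, had 12.8, 20.9, 21.4 and 5.999 CPM in the dorsal libraries and 54.2, 18.2, 7.18 and 11.7 CPM in the accumbens ones. Both were highest in accumbens 1, and accumbens 3 was the lowest library for Mbp and next to the lowest for Mobp. Their log2 fold changes of 0.22 and 0.58 (adjusted p = 0.828 and 0.677) turned to -0.21 and -0.29 without accumbens 1.

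Cnp, an enzyme of myelinating membranes, ordered the libraries in another way. It had 25.6, 37.4, 16.4 and 25.3 CPM in dorsal striatum 1 to 4 and 21.8, 15.2, 41.3 and 41.7 CPM in accumbens 1 to 4. Accumbens 3, the lowest library for Mbp, was close to the highest for Cnp, and accumbens 1 and 2, the highest for Mbp, were among the lower libraries for Cnp. Per kb, the ratio of Mbp to Cnp ranged from 0.422 in accumbens 3 to 3.83 in accumbens 1. The strand setting of the counting is not given in the sources used here, and exons of Cnp overlap those of Dnajc7 on the opposite strand, so reads of the pair may have been shared or left uncounted.

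Some of the lower oligodendrocyte genes drew most on 1 library, and others were spread more evenly. Mog, a surface protein of mature myelin, had 53 of its 61 counts in accumbens 1, at 4.75 CPM, and at most 0.423 CPM in any other library. Mal, a myelin proteolipid, reached 20.2 CPM in accumbens 4 and at most 6.90 CPM elsewhere. Mag, an adhesion protein of myelin, had 0.354, 1.59, 0.138 and 0.295 CPM in the dorsal libraries and 2.24, 1.36, 0 and 1.74 CPM in the accumbens ones, with overlapping regions (log2 fold change 1.13, adjusted p = 0.732). Ermn ran from 2.07 to 13.1 CPM and Aspa from 0.0789 to 1.65 CPM, while Cldn11 and Opalin were too low to test, with 48 and 41 counts over the 8 libraries. Ugt8a, an enzyme of myelin lipid synthesis, was the only marker whose regions did not overlap, at 0 to 0.690 CPM in the dorsal libraries and 0.766 to 2.37 CPM in the accumbens ones. It had 89 counts in all and entered the test only without a filter, where its adjusted p was 0.523.

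Precursor and lineage markers varied least as a sum, 2.38-fold between the extreme libraries. The 5 genes summed to 17.6, 13.02, 15.5 and 7.67 CPM in dorsal striatum 1 to 4 and to 17.2, 18.2, 12.5 and 11.7 CPM in accumbens 1 to 4, with overlapping regions. The most abundant on average was Vcan, a matrix proteoglycan, with 11.2, 4.76, 10.8 and 5.90 CPM in the dorsal libraries and 6.18, 8.17, 9.62 and 4.05 CPM in the accumbens ones (log2 fold change -0.22, adjusted p = 0.896). Pdgfra, the growth factor receptor that defines precursors, ran from 0.197 to 6.27 CPM, and Cspg4, the NG2 proteoglycan, from 0.0851 to 3.47 CPM. The lineage factors Olig1 and Olig2 ordered the libraries differently. Olig1 had 0.472, 3.81, 2.07 and 0.885 CPM in dorsal striatum 1 to 4 and 2.42, 1.87, 0.158 and 1.24 CPM in accumbens 1 to 4. Olig2 had 1.65, 0.529, 0.276 and 0 CPM in the dorsal libraries and 1.07, 4.60, 0.158 and 1.98 CPM in the accumbens ones. Their log2 fold changes were -0.35 and 1.66, neither passing the test (adjusted p = 0.927 and 0.574).

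Microglia markers were close to absent, and none of the 7 had enough counts to be tested. Together they gave 10, 35, 15 and 5 counts in dorsal striatum 1 to 4 and 183, 63, 121 and 41 counts in accumbens 1 to 4. As levels these were 1.18, 3.71, 2.07 and 0.492 CPM in the dorsal libraries and 16.4, 5.36, 9.54 and 3.39 CPM in the accumbens ones. Dorsal striatum 2 exceeded accumbens 4, and the other 3 accumbens libraries were above all dorsal ones. C1qa, a complement gene strongly expressed by microglia, had 0 counts in all 8 libraries, which allows at most 0.0361 CPM over their pooled counts.

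Csf1r, the receptor microglia need to survive, had 0.118, 0.529, 0.276 and 0.0983 CPM in dorsal striatum 1 to 4 and 4.48, 0, 5.05 and 0.744 CPM in accumbens 1 to 4. P2ry12, a purine receptor of resting microglia, had 0, 0.318, 0.138 and 0 CPM and 1.61, 0, 3.47 and 1.16 CPM. Accumbens 2 had no count of either gene. Ctss, the lysosomal protease cathepsin S, had 0.590, 1.06, 0.138 and 0.393 CPM in the dorsal libraries and 2.33, 3.83, 0 and 0.248 CPM in the accumbens ones. C1qb, another complement gene, had 0, 0.423, 0.276 and 0 CPM and 0.716, 1.19, 0 and 1.16 CPM. Both were highest in accumbens 2, while accumbens 3, the highest library for Csf1r and P2ry12, had no count of them. Cx3cr1, the fractalkine receptor, reached 5.28 CPM in accumbens 1 and at most 1.27 CPM elsewhere, and C1qc reached 1.97 CPM there and at most 0.237 CPM elsewhere. Without a filter on low counts, Csf1r and P2ry12 had unadjusted p-values of 0.0157 and 0.0272 and adjusted p-values of 0.207 and 0.270. Exons of both overlap a gene on the opposite strand, Hmgxb3 and Med12l, which limits how far their few counts can be assigned.

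**Figure D4:**
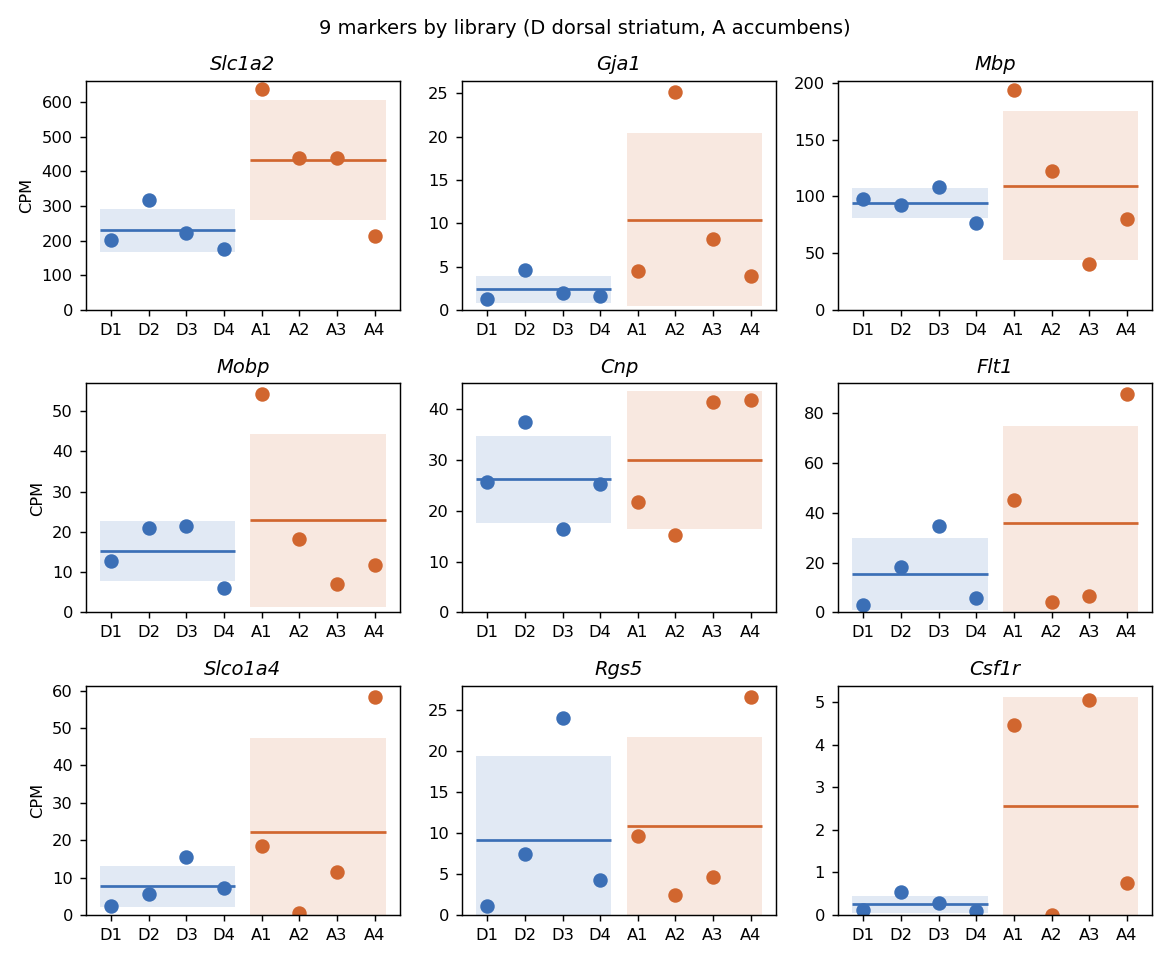
CPM (y axis, from 0, scale differing between panels) of 9 markers in each library (x axis, D1 to D4 dorsal striatum in blue, A1 to A4 accumbens in orange), with lines at the region means and shading of 1 SD. A4 is the highest library for Flt1, Slco1a4 and Rgs5, A1 for Slc1a2, Mbp and Mobp, and A2 for Gja1.

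Vascular markers separated libraries more than regions. The 11 endothelial, mural and fibroblast genes summed to 13.2, 50.4, 104 and 25.8 CPM in dorsal striatum 1 to 4 and to 99.7, 13.9, 37.9 and 234 CPM in accumbens 1 to 4. The highest library was 17.7 times the lowest, against 3.53 for the astrocyte sum and 3.09 for the oligodendrocyte sum. The ratio was larger still, at 33.3, for the microglia sum, which rests on far fewer counts. Dorsal striatum 3 and accumbens 4 were at the top of their regions, and dorsal striatum 1 and accumbens 2 at the bottom. The mean of accumbens was 1.99 times that of dorsal striatum, and 1.05 times without accumbens 4. None of the 9 tested genes was called by edgeR, and 1 had an unadjusted p under 0.05. Their median log2 fold change was 0.79 with 8 above 0, and without accumbens 4 it was 0.09 with 5 of 9 above 0. It was 1.503 without dorsal striatum 3 and 1.19 without accumbens 2.

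Flt1 (chromosome 5, 147561604 to 147726011, minus strand, GRCm38), a receptor for vascular endothelial growth factor, was the most abundant of them in CPM. It is described here because of its spread and was chosen after its values were seen, as was Pecam1. Its level was 2.95, 18.2, 34.8 and 5.80 CPM in dorsal striatum 1 to 4 and 44.9, 4.09, 6.78 and 87.4 CPM in accumbens 1 to 4, a range of 29.6-fold. Low and high libraries occurred in both regions. The log2 fold change was 1.22 with a standard error of 0.76 (adjusted p = 0.507).

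Slco1a4 (chromosome 6, 141805440 to 141856199, minus strand), an organic anion transporter of the blood-brain barrier, had 2.48, 5.51, 15.5 and 7.08 CPM in the dorsal libraries and 18.5, 0.596, 11.6 and 58.3 CPM in the accumbens ones. Accumbens thus held the lowest library and the 2 highest, which were 97.9-fold apart at the extremes. Its log2 fold change was 1.55 with a standard error of 0.77 (adjusted p = 0.368). Accumbens 2 was its lowest accumbens library and dorsal striatum 3 its highest dorsal one, so leaving out both raises the fold change by construction, to 2.54 (adjusted p = 0.0194). Pecam1, an adhesion protein of endothelial junctions, had 0, 4.13, 5.11 and 0.0983 CPM in the dorsal libraries and 4.66, 0.511, 2.29 and 13.8 CPM in the accumbens ones, and ordered the libraries within each region as Flt1 did. Kdr, the main signalling receptor for vascular endothelial growth factor, kept that order in dorsal striatum. In accumbens it differed only at the low end, with accumbens 3 at 0.947 CPM below accumbens 2 at 1.36 CPM. Across regions, its highest value was in dorsal striatum 3, at 9.66 CPM, ahead of accumbens 4 at 7.85 CPM. Itm2a was steadier, with 5.31, 3.18, 2.35 and 1.77 CPM in the dorsal libraries and 2.51, 4.51, 3.94 and 6.94 CPM in the accumbens ones. Ly6c1, a surface protein of brain endothelium, ran from 0 to 8.51 CPM and was also highest in accumbens 4. Cldn5, a tight junction protein, was too low to test at up to 2.89 CPM, reached in accumbens 4.

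The mural genes showed a like pattern. Rgs5, a regulator of G protein signalling typical of pericytes, had 1.06, 7.41, 24.02 and 4.23 CPM in dorsal striatum 1 to 4 and 9.58, 2.47, 4.58 and 26.6 CPM in accumbens 1 to 4. Its highest libraries were accumbens 4 and dorsal striatum 3, and its log2 fold change of 0.24 (adjusted p = 0.937) turned to -0.73 without accumbens 4. Vtn, vitronectin, had 0.590, 3.49, 4.97 and 0 CPM in the dorsal libraries and 2.87, 0.0851, 3.08 and 9.50 CPM in the accumbens ones, with the same 2 libraries at the top. Pdgfrb, the receptor that recruits pericytes, differed in that accumbens 1 was highest. It had 0.118, 0.847, 1.52 and 0.688 CPM in the dorsal libraries and 6.89, 0.170, 3.71 and 3.55 CPM in the accumbens ones, a log2 fold change of 2.17 with a standard error of 0.99 (adjusted p = 0.308). Dcn, the fibroblast proteoglycan decorin, had 0, 0.423, 0.138 and 0.0983 CPM in the dorsal libraries and 1.43, 0, 0 and 8.18 CPM in the accumbens ones, so that 99 of its 121 counts were in accumbens 4.

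Accumbens 4 was the highest of the 8 libraries for 9 of the 11 vascular markers. Among tested genes only, it was the highest for 7 of the 9 vascular markers, against 12.3% of all genes tested. In dorsal striatum, library 3 was the highest of its region for 8 of the 11. At the low end, accumbens 2 was the lowest of its region for 9 of the 11, ties included, and dorsal striatum 1 was the lowest of its region for 9. The classes did not share this order. For oligodendrocyte genes accumbens 1 was highest for 6 of 11 and accumbens 4 for 4, while for astrocyte genes accumbens 2 was highest for 5 of 12. In accumbens 4 the vascular sum was the highest of all libraries and the astrocyte sum ranked 6 of 8. Per kb, Flt1 was 0.396 of the level of Slc1a2 in accumbens 4 and 0.00907 of it in accumbens 2.

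A list of 18 further endothelial genes, which holds none of the markers, gave 0 calls by edgeR among 17 tested, with 2 at an unadjusted p under 0.05. Accumbens 4 was the highest library for 10 of them, and dorsal striatum 3 the highest of its region for 12. Ptprb, an endothelial phosphatase, had 2.95, 28.4, 92.1 and 5.01 CPM in dorsal striatum 1 to 4 and 36.7, 2.38, 41.1 and 184 CPM in accumbens 1 to 4. Vwf, von Willebrand factor, had 0.354, 9.53, 25.4 and 0.492 CPM in the dorsal libraries and 10.03, 0, 4.42 and 81.6 CPM in the accumbens ones. The most abundant gene of that list, Bsg, is not restricted to vessels and was far steadier, from 71.2 to 227 CPM. The further mural and fibroblast list, which shares Cspg4 with the markers, gave 0 calls among 8 tested, with 2 at an unadjusted p under 0.05. In its highest library it followed the vascular markers less closely. Of its 15 genes with counts other than Cspg4, accumbens 4 was highest for 5, accumbens 1 for 4 and a dorsal library for 4. Dorsal striatum 3 was the highest of its region for 8. At the low end, ties included, accumbens 2 and dorsal striatum 1 were each the lowest of their region for 11 of these 15. For the 18 further endothelial genes those counts were 10 and 8.

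Among 20 further astrocyte genes, 17 were tested, and 1 rose and 1 fell. Fold changes were above 0 for 14 of the 17, with a median log2 fold change of 0.51. In either direction, 11 had an unadjusted edgeR p under 0.05 and 6 had separate regions. Slc4a4 and Acsl6, which were lower in accumbens, are in both counts. Of all 12467 tested genes, 1850 had an unadjusted p under 0.05 and 9.69% had separate regions. Glul, the glutamine synthetase of astrocytes, rose from a dorsal 104.9 ± 6.69 CPM to 207.8 ± 12.5 CPM in the accumbens libraries (SD, n = 4 each), a log2 fold change of 0.99. Slc4a4, a bicarbonate cotransporter, fell from 506 ± 89.1 to 252 ± 39.6 CPM (SD, n = 4 each), a log2 fold change of -1.01. Glul and Slc4a4 averaged 47.1 and 35.1 CPM per kb, above Slc1a2 at 25.2, and the cells their counts came from were not tested. Both separated the regions without overlap, and neither varied among accumbens libraries as did Slc1a2, whose SD there was 173 CPM. Accumbens 4, where Slc1a2 was within the dorsal range, had the highest Glul of all libraries, at 226 CPM. None of the further oligodendrocyte, precursor or microglia genes was called, among 13, 5 and 3 tested. Of 15 genes linked to aged or activated microglia, 7 had 0 counts in every library and 4 were tested, with 0 called. B2m, the light chain of major histocompatibility class I, averaged 7.09 and 16.5 CPM in dorsal and accumbens libraries (adjusted p = 0.0638), and the receptor kinase Axl averaged 0.637 and 4.004 CPM (adjusted p = 0.0953), both with separate regions. The other 2 of the 4 tested genes had fold changes below 0 and overlapping regions. Lpl, lipoprotein lipase, which is not restricted to microglia, averaged 47.7 and 41.5 CPM, and Ifitm3 averaged 2.02 and 1.44 CPM. The cells that the counts of these 4 genes came from were not tested.

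Spread within regions was larger for the markers than for most genes of their level. The biological coefficient of variation, edgeR's estimate of the relative spread between libraries of a region beyond counting noise, lay above the fitted trend with abundance for 23 of the 30 tested markers (76.7%), against 35.5% of all tested genes. By class it was above the trend for 8 of 9 vascular, 7 of 7 oligodendrocyte, 4 of 5 precursor and lineage and 4 of 9 astrocyte genes. Among the comparison lists it was above the trend for 15 of 17 further endothelial, 7 of 8 further mural and fibroblast, 10 of 17 further astrocyte, 8 of 13 further oligodendrocyte and 2 of 5 further precursor genes. Lists with few tested genes gave 1 of 3 further microglia, 1 of 4 aged or activated microglia and 2 of 2 reactive astrocyte genes. They also gave 0 of 2 ependymal and choroid plexus genes and 1 of 1 blood gene. Among neuronal lists it was above the trend for 6 of 6 interneuron genes, 2 of 12 pan-neuronal genes and 1 of 10 striatal projection neuron genes. The counts were 3 of 7 for indirect pathway and 2 of 9 for direct pathway genes. Flt1 stood at 2.39 times its trend, and 0.0642% of all tested genes had a higher ratio. The ratio was 1.94 for Slco1a4, 1.62 for Mbp, 1.59 for Rgs5 and 1.52 for Slc1a2. The estimates were made from the same 8 libraries and describe them, without a test.

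**Figure D5:**
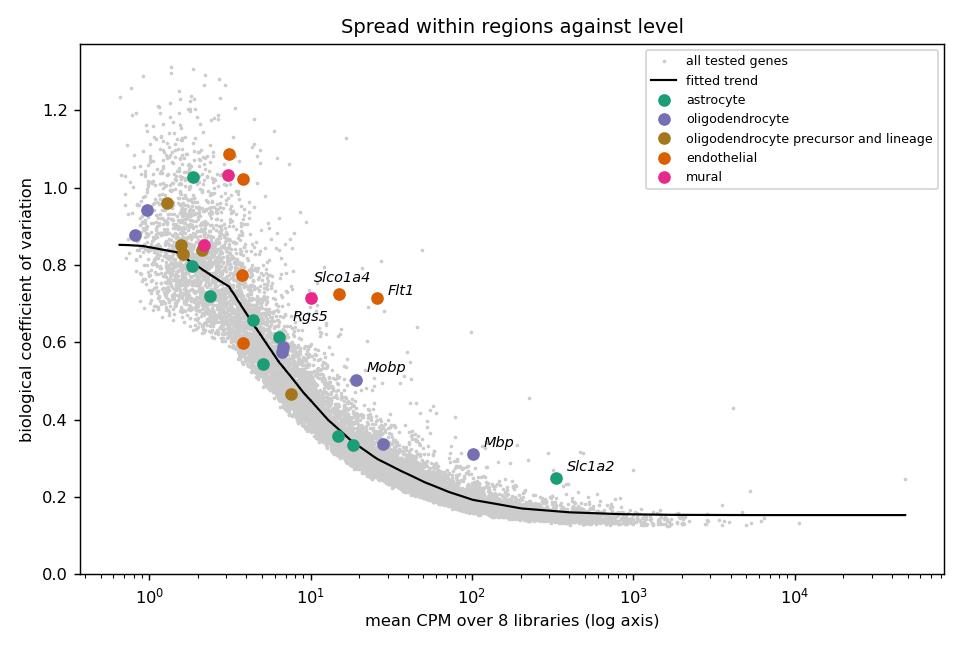
Biological coefficient of variation within regions (y axis) against mean CPM over the 8 libraries (x axis, log scale) for all tested genes in grey, the fitted trend as a black line and the 30 tested markers coloured by cell type. Flt1, Slco1a4, Rgs5, Mobp, Mbp and Slc1a2 lie well above the line, the first at 2.39 times the trend.

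Other properties of the libraries also differed between the regions. Reads of no single gene made up 27.1% to 33.8% of counted reads in dorsal libraries and 35.5% to 40.6% in accumbens libraries. Rn45s, a ribosomal RNA precursor, took 1.91% to 5.84% of gene counts in dorsal and 5.66% to 6.71% in accumbens libraries. Striatal projection neuron genes summed to 12847 ± 625 CPM for dorsal and 8706 ± 543 CPM for accumbens libraries (SD, n = 4 each), with 6 of 10 called lower. Genes typical of indirect pathway neurons, at which the tag was not aimed, summed to 320 ± 48.1 CPM for dorsal and 747 ± 132 CPM for accumbens libraries (SD, n = 4 each). Of these genes 3 of 7 were called higher, and their sum was highest in accumbens 1, at 943 CPM. Penk alone averaged 248 CPM in dorsal and 605 CPM in accumbens libraries. Whether these counts came from cells without the tag could not be told here. Against Drd1, Slc1a2 per kb ran from 0.0731 in dorsal striatum 4 to 0.399 in accumbens 1. Their part in the regional difference of the markers was not tested.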

How the data were processed

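Polysomes carrying the Drd1-driven tag were immunopurified from dissected dorsal striatum and accumbens nucleus of mice older than 20 months, per the labels, and regions were taken from sample titles. The deposited values are raw read counts per gene symbol. The submitters' processing notes name STAR 2.0.0e, HTSeq and the mm10 build. The annotation, strand setting and read filters are not given in the sources used here. Totals of reads without a single gene (27.1% to 40.6% of counted reads) entered neither library sizes nor tests.

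All genes were fitted together in R 4.3.3 by the quasi-likelihood test of edgeR 4.0.16 ( TMM, filterByExpr with a minimum count of 10, region as the only term), with Benjamini-Hochberg adjustment over 12467 genes and a threshold of 0.05. Standard errors were derived from each F statistic. DESeq2 1.42.0 and limma-voom (limma 3.58.1) were alternatives. Counts of every pair of libraries in a region differed beyond sampling noise.

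The members and all lists were chosen with earlier results of these data known. Values in every library are printed for Drd1, Rpl10a, called markers, the 2 markers per class of highest level per kb, those of largest fold change or range, and others picked after their values were seen, Flt1 and Pecam1 among them. Exon lengths and coordinates (1-based) are from GENCODE M21 on GRCm38. Exons of 12 of the 46 markers overlap another gene there, 11 of them on the opposite strand, so their counts are uncertain.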

Additional observations from a re-analysis of the deposited data

Results flagged for a closer look

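For 1 of 56 groups of 4 libraries examined, 1 library lay far from the other 3 relative to the range of the group. Mag, the myelin adhesion protein, had 1.59 CPM in dorsal striatum 2, and the nearest of the other dorsal libraries had 0.354 CPM. Such a gap is met by chance in about 1 in 20 groups. Not every marker was among the groups examined, and wider gaps occurred outside them. Mog, for example, had 4.75 CPM in accumbens 1 and at most 0.0789 CPM in the other accumbens libraries.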

How the results depend on the processing

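The number of markers called higher in accumbens was 1 with edgeR and TMM. It was 0 with upper-quartile normalization and with limma-voom and sample quality weights, 2 with no filter on low counts (Slc1a2 and Gja1), 1 with DESeq2 (Gja1 in place of Slc1a2), and 0 to 1 with each library left out. No marker was called lower under any alternative run. Over all genes, 464 were called by edgeR and 763 by DESeq2. With each library left out, log2 fold changes took both signs for Rpl10a (-0.0295 to 0.17), Mbp (-0.21 to 0.49), Cnp (-0.00523 to 0.42), Mobp (-0.29 to 0.88), Olig1 (-0.72 to 0.32), Rgs5 (-0.73 to 1.34) and Vtn (-0.17 to 1.503), and Rpl10a was at -0.0624 without accumbens 2 and dorsal striatum 3. None of these was called, and the cause was not tested. As a log2 ratio of accumbens over dorsal striatum, the mural sum ran from -0.14 to 1.57 and the endothelial sum from 0.11 to 1.69 with each library left out, and the astrocyte sum from 0.66 to 1.09.

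Libraries with the same replicate number did not deviate together (correlations 0.01, -0.08, -0.04 and -0.04), so the number pairs nothing that these data show. With a replicate block 432 genes were called, and Slc1a2 was again the called marker, with a log2 fold change of 0.85 and an adjusted p of 0.0225.

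Depth limits the untested genes. The 7 microglia genes together gave 5 to 183 counts per library and the fibroblast gene 0 to 99, and a count of 3 or fewer was not read as detected.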
